A study of Homo sapiens with 9 samples.

Results

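Cells treated for 24 h with the GPX4 inhibitor RSL3 (2 µM) and the radical-trapping antioxidant ferrostatin-1, or Fer-1 (5 µM), were compared with cells given the vehicle DMSO for 24 h, to describe the response to RSL3 that remained, or appeared, while ferroptosis was blocked. The genes described are the 9583 named protein-coding loci with an FPKM (fragment count scaled by transcript length and library size) of at least 1 in 3 or more of the 9 libraries, out of 43444 loci in the deposited table. The study sequenced total RNA from cells labelled A549, grown in DMEM with 10% fetal bovine serum, in 3 groups of 3 libraries. These were RSL3 at 2 µM plus Fer-1 at 5 µM, RSL3 at 2 µM alone, and DMSO, each for 24 h. No group had Fer-1 alone, so an effect of Fer-1 itself and an effect of RSL3 that Fer-1 leaves in place cannot be told apart. The labels name no separate cultures for the 3 libraries of a group, so the p-values measure the spread between these samples, which may be technical.

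Ferroptosis is a form of cell death driven by iron-dependent oxidation of membrane lipids. GPX4 reduces lipid peroxides with the help of glutathione, RSL3 binds GPX4 and inactivates it, and Fer-1 traps the lipid radicals that carry the chain reaction without restoring GPX4. RSL3 is a chloroacetamide that also reacts with other selenoproteins and thiols, and the transcription factor NRF2, which is released from its inhibitor KEAP1 by electrophiles and oxidants, switches on genes of glutathione synthesis, the thioredoxin system, NADPH supply and carbonyl detoxification.

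Levels are in CPM, counts brought to a common library size by the library total and by TMM factors of 0.99 to 1.01, listed for replicates 1, 2 and 3 of a group. Changes are log2 differences from edgeR's quasi-likelihood test, given with the SE, and p-values are Benjamini-Hochberg adjusted over 17297 named loci, with a gene called at an adjusted p under 0.05. The libraries held 39143521 to 45855255 estimated counts, so 3 counts, the limit that a count of 0 allows, correspond to 0.0658 to 0.077 CPM. GPX4, the target of RSL3, held 10.4, 8.95 and 9.19 CPM with RSL3 plus Fer-1, 12.4, 9.75 and 8.94 CPM with RSL3, and 9.63, 10.9 and 9.87 CPM with DMSO (log2 change against DMSO -0.09, SE 0.14, adjusted p = 0.821). The 3 groups overlapped for this mRNA, which does not measure the inhibition of the protein.

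Some measurements stood apart from the labels and bear on what follows. CDKN2A and CDKN2B, genes chosen here after their values were seen and known to be homozygously deleted in A549, were present in all 9 libraries, at 57.7 to 67.9 CPM and at 39.5 to 53.3 CPM. CDH1, the epithelial cadherin, lay between 0 and 0.198 CPM, ALDH1A1 between 0 and 0.206 CPM and the surfactant gene SFTPC between 0 and 0.184 CPM, while the keratins KRT8 and KRT18 and vimentin (VIM) were abundant (649 to 747, 514 to 598 and 733 to 848 CPM). The CDKN2A and CDKN2B values thus go against the label A549, and the cells are called the cells labelled A549 below. DMSO replicates 1 and 2 also carried fibroblast transcripts that the other 7 libraries held at lower levels. In 7 of the 8 fibroblast markers these 2 libraries lay above all others, and the sum over the 6 markers with a single gene name was 16, 15.6 and 15.6 CPM with RSL3 plus Fer-1, 18, 21.3 and 15.6 CPM with RSL3, and 96.2, 121 and 19.3 CPM with DMSO. The collagen gene COL1A1 had 9.49, 9.86 and 9.41 CPM with RSL3 plus Fer-1, 10.3, 11.9 and 9.82 CPM with RSL3, and 49.3, 62.6 and 11.5 CPM with DMSO. Endothelial markers with a single name summed to at most 1.01 CPM in any library, with 1 or more of CDH5 and VWF at 0 in 5 libraries, and blood markers to 5.01 to 12.3 CPM. The part of these transcripts in the results was not tested, and calls of named genes that ended when DMSO replicates 1 and 2 were both left out are mostly given below. The calls of RFXAP, LOXL3 and COL15A1 ended in that fit as well (changes of -0.68, -0.54 and 0.42). That fit keeps 1 DMSO library, which is assumed to vary like the libraries of the other groups.

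**Figure D1:**
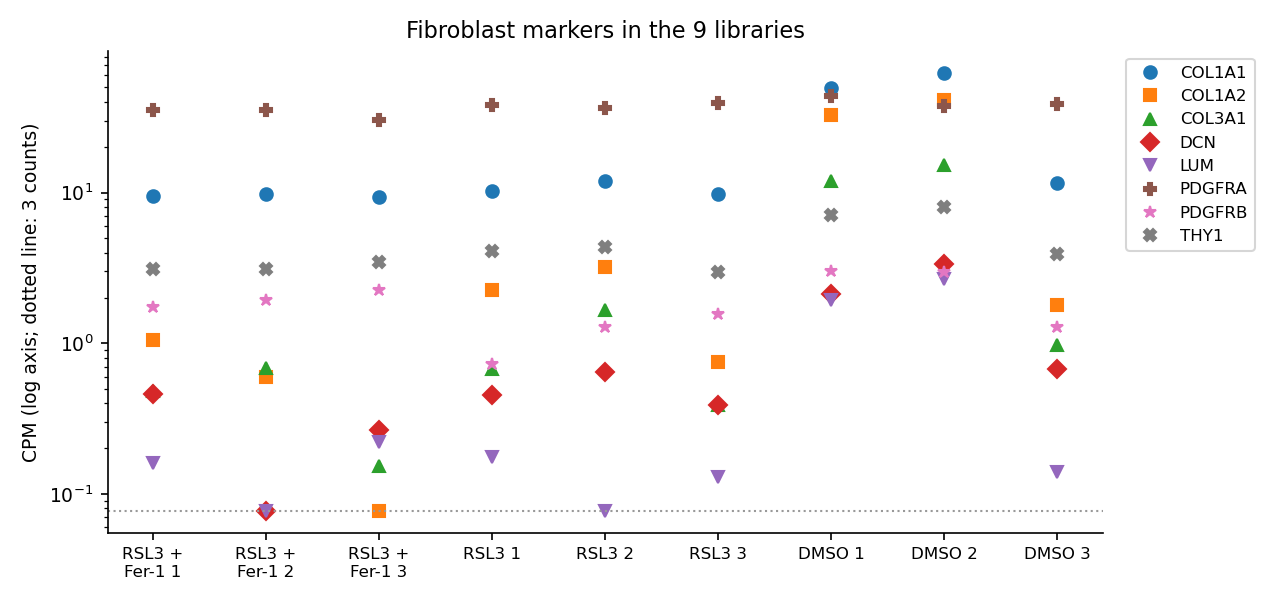
Fibroblast markers in each of the 9 libraries, as CPM on a log axis with 1 point per gene and library; values below 3 counts are drawn at the dotted line (0.077 CPM). In DMSO replicates 1 and 2 COL1A1 stood at 49.3 and 62.6 CPM, against 9.41 to 11.9 CPM in the other 7 libraries.

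Promoters of genes the results turn on are shown here because the letters of 2 motifs of stress-responsive factors stand in them. Sequences are from RefSeq on GRCh38.p14, written 5′ to 3′ on the strand of the gene, from 250 bases before to 50 bases after its start. In the first 3, genes of the thioredoxin system, of glutathione synthesis and of NADPH supply, capitals mark TGACNNNGC, the core of the antioxidant response element that NRF2 binds, searched on both strands. In the last 2, genes of secreted signals, they mark TGANTCA, the AP-1 site, also searched on both strands.
TXNRD1: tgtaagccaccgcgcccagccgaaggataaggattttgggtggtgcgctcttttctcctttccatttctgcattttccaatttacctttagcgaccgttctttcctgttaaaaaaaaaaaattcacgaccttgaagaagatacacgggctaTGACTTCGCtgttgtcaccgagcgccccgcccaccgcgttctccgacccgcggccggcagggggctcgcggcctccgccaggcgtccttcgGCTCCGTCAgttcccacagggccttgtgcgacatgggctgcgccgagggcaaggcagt
GCLM: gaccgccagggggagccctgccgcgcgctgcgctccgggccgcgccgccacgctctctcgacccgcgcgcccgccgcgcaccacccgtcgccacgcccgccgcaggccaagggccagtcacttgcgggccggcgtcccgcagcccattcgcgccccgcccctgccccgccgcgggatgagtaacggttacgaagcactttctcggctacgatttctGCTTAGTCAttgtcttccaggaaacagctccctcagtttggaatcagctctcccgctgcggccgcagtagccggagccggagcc
ME1: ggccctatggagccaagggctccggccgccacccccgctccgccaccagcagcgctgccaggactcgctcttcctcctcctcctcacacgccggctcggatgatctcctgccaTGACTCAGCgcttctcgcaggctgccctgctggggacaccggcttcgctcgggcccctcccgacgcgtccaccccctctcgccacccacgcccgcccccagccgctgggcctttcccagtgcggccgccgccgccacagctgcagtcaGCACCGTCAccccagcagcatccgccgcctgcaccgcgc
CXCL8: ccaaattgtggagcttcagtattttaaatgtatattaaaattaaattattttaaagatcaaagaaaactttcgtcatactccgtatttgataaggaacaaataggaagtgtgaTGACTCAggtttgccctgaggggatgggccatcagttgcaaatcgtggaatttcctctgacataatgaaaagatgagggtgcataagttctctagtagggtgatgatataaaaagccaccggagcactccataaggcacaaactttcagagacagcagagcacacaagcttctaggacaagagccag
IL11: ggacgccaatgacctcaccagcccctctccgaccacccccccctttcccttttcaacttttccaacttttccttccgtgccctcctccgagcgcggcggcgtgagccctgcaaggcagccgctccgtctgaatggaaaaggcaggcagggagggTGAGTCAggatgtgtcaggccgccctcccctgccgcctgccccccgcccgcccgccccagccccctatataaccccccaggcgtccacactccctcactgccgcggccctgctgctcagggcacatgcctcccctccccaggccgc
These windows lie at chr12:104215529-104215828 on the plus strand for TXNRD1, chr1:93909381-93909680 on the minus strand for GCLM, chr6:83431002-83431301 on the minus strand for ME1, chr4:73740319-73740618 on the plus strand for CXCL8 and chr19:55370414-55370713 on the minus strand for IL11. The first match in ME1 also holds the AP-1 letters TGACTCA. The antioxidant motif stood in 13.6% of all 27305 promoters of the RefSeq table and in 15.8% of the 6363 promoters matched to members with a single gene name. Among such members that rose it stood in 60 of 376 (16%), near the share of all members, and among those that fell in 31 of 239 (13%). Among NRF2 targets that rose it stood in 6 of the 19 matched (31.6%). The AP-1 motif stood in 7.76% of all promoters and 3.93% of those of members, with 6.65% for the rises and 4.18% for the falls. The antioxidant letters are not in the windows of AKR1C2, AKR1C3 and NQO1.

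With RSL3 plus Fer-1, 991 of the 9583 members were called against DMSO (10.3%), with 603 higher (6.29%) and 388 lower (4.05%). Most changes were small, with a median fold of 1.22 among the rises and 1.16 among the falls. Changes of at least 1.5-fold were seen in 66 rises (0.689%) and 22 falls (0.23%), and of at least 2-fold in 12 rises (0.125%) and 3 falls (0.0313%). Over all 17297 named loci tested 1157 were called (6.69%). In 2901 members the 3 libraries with RSL3 plus Fer-1 and the 3 with DMSO did not overlap (30.3%), among them 985 of the 991 called. The median log2 change over all 9583 members was 0.01. For the same members RSL3 alone against DMSO called 2388 (24.9%), with 1314 rises (13.7%) and 1074 falls (11.2%), and RSL3 plus Fer-1 against RSL3 called 903 (9.42%), with 346 rises (3.61%) and 557 falls (5.81%). These comparisons share libraries, so for the genes given in full below the values of all 3 groups stand side by side. In bulk RNA, fewer cells of a type and less RNA per cell cannot be told apart. The count of calls rested in part on single libraries, with 658 without DMSO replicate 2, 640 and 603 without RSL3 plus Fer-1 replicate 2 or 3, and 358 without DMSO replicates 1 and 2.

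The largest rises were in enzymes of carbonyl reduction. AKR1C2, an aldo-keto reductase that reduces reactive aldehydes and steroids, had 43.9, 38.5 and 50.9 CPM with RSL3 plus Fer-1, 44.6, 38.6 and 45.2 CPM with RSL3, and 6.48, 6.26 and 7.43 CPM with DMSO. Both treated groups lay far above DMSO and overlapped each other. The change against DMSO was 2.72 (SE 0.104, adjusted p = 4.26e-15), or 6.61-fold, and RSL3 plus Fer-1 differed from RSL3 by 0.05 (adjusted p = 0.847). AKR1C3, its neighbour on chromosome 10, averaged 94.2 ± 4.07 CPM with RSL3 plus Fer-1, 98.2 ± 1.07 CPM with RSL3 and 21.5 ± 2.96 CPM with DMSO (SD, n = 3 each), a rise of 2.13 (SE 0.0736, adjusted p = 4.07e-15). The close paralogue AKR1C1, below the FPKM minimum and not tested, stood at 7.96, 6.27 and 9.41 CPM with RSL3 plus Fer-1, 15.1, 10.5 and 9.87 CPM with RSL3, and 1.68, 1.66 and 1.14 CPM with DMSO. These genes are nearly identical in sequence, so how reads were divided among them is uncertain. HKDC1, of the hexokinase family, had 7.31, 6.73 and 7.5 CPM with RSL3 plus Fer-1, 12.3, 13.2 and 10.7 CPM with RSL3, and 1.82, 2.37 and 1.86 CPM with DMSO (1.83 against DMSO, adjusted p = 1.8e-08; -0.75 against RSL3, adjusted p = 0.00217). LYPD3, a surface protein anchored by a lipid, and SEL1L3 rose by 1.63 (adjusted p = 1.82e-06) and 1.02 (adjusted p = 4.31e-12), and neither was called against RSL3 (adjusted p = 0.75 and 0.0906). The AKR1C2 locus spans chr10:4987400-5018031 and that of AKR1C3 chr10:5035354-5107686 on GRCh38.

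**Figure D2:**
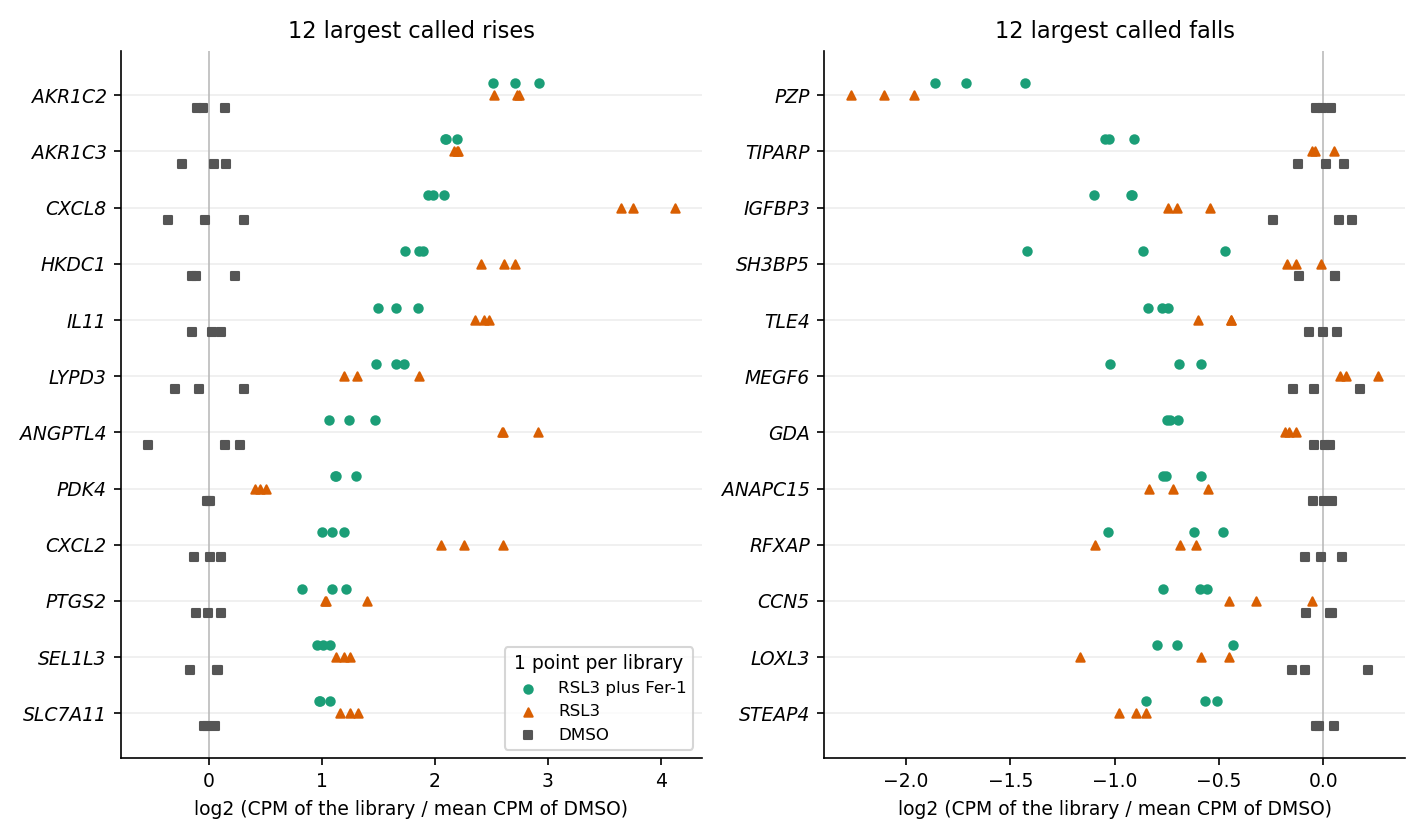
The 12 largest called rises and falls among members with a single gene name, as log2 of the CPM in each library over the mean CPM of DMSO, with circles for RSL3 plus Fer-1, triangles for RSL3 and squares for DMSO. AKR1C2 and AKR1C3 have both treated groups at about the same distance from DMSO, CXCL8 has RSL3 plus Fer-1 between the others, PDK4 has RSL3 plus Fer-1 farthest from DMSO, and TIPARP has RSL3 at DMSO.

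SLC7A11, the cystine importer of system xc-, which feeds glutathione synthesis, had 911, 851 and 857 CPM with RSL3 plus Fer-1, 1082.4, 966 and 1027.7 CPM with RSL3, and 421, 427 and 450 CPM with DMSO. All 3 groups were apart from one another, with RSL3 plus Fer-1 in between. The rise against DMSO was 1.01 (SE 0.0388, adjusted p = 6.86e-14), or 2.02-fold, and the level lay 0.23 below that with RSL3 on the log2 scale (log2 difference -0.23, adjusted p = 0.000337). Its locus lies at chr4:138160486-138252227.

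The NRF2 targets moved together. Of 34 listed genes 30 reached the FPKM minimum, and 26 of these 30 rose and 0 fell, against 6.29% higher and 4.05% lower over all members. Their median change was 0.53, against 0.01 over all members. With RSL3 alone 27 rose and 0 fell with a median of 0.65, and in RSL3 plus Fer-1 against RSL3 0 rose and 8 fell. HMOX1, GCLC, ABCC1 and ABCB6 did not pass, and 24 rose without DMSO replicates 1 and 2. The list was drawn up with earlier results of these libraries known, so its count is no independent evidence of direction.

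**Figure D3:**
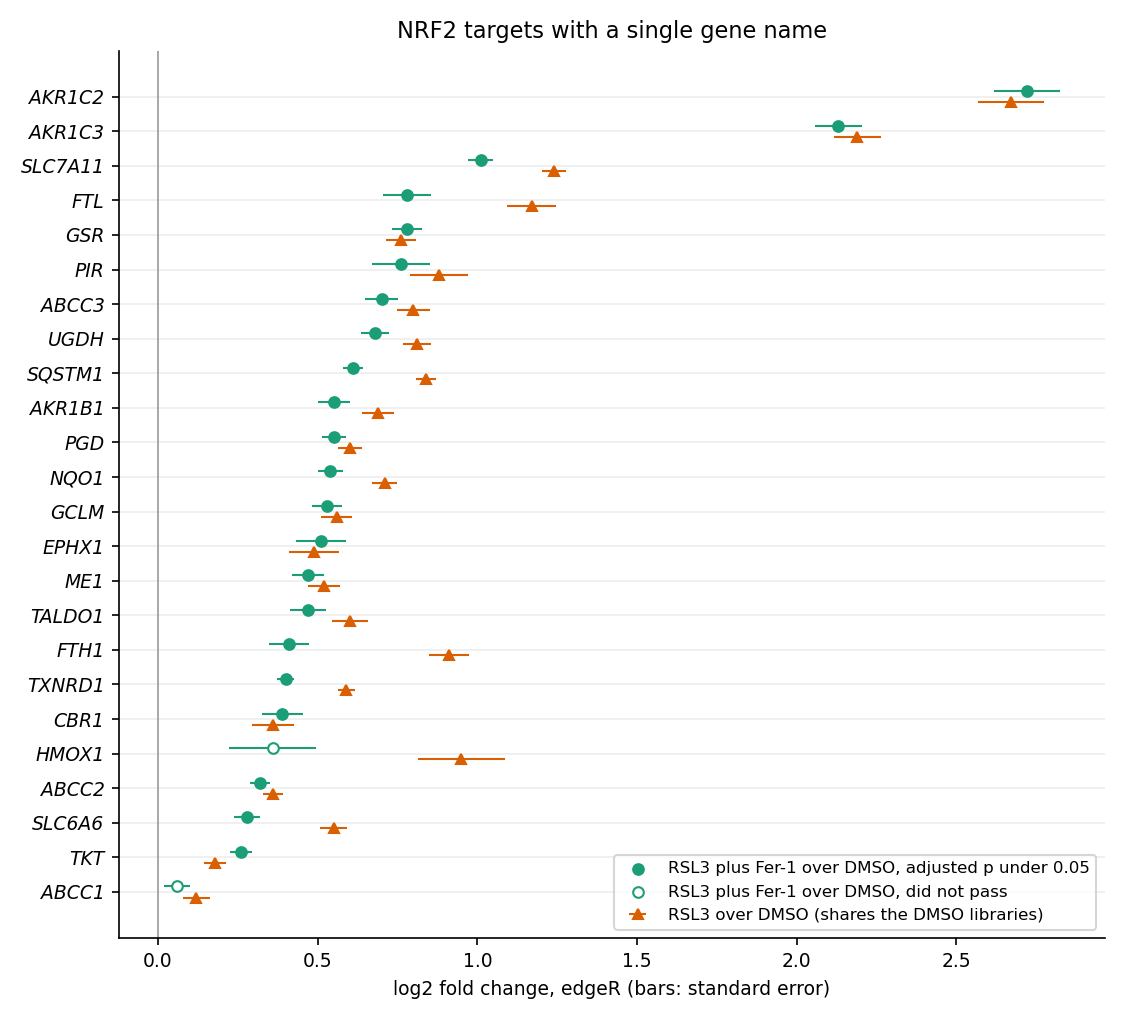
The log2 fold change over DMSO (x axis, edgeR) of the 24 NRF2 targets that are members with a single gene name, with bars for the standard error; circles are RSL3 plus Fer-1, filled where called, and triangles are RSL3, which shares the DMSO libraries. The 22 filled circles lie right of 0, from 0.26 (TKT) to 2.72 (AKR1C2), and FTH1 and HMOX1 are among the genes with RSL3 farther to the right.

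In glutathione synthesis and recycling, GCLM, the modifier subunit of glutamate-cysteine ligase, had 134, 124 and 128 CPM with RSL3 plus Fer-1, 137, 128 and 129 CPM with RSL3, and 87.1, 94.1 and 86.9 CPM with DMSO. All libraries of both treated groups lay above DMSO (0.53 against DMSO, SE 0.0478, adjusted p = 1.55e-08; -0.03 against RSL3, adjusted p = 0.825). GSR, which reduces oxidised glutathione, rose by 0.78 (adjusted p = 3.84e-12), and the membrane transferase MGST1 and the transferase GSTM3 by 0.39 each. The catalytic subunit GCLC, in a locus joined with another gene, held 156, 110 and 144 CPM with RSL3 plus Fer-1, 107, 146 and 142 CPM with RSL3, and 93.4, 94.5 and 98.9 CPM with DMSO, and did not pass (0.52, adjusted p = 0.165). Over the list of glutathione enzymes and transferases 5 of 18 members rose and 1 fell, with a median of 0.14. This was 33.3% called, against 10.3% of all members.

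In the thioredoxin system, TXNRD1, the selenoprotein that reduces thioredoxin, had 1156.3, 1158.4 and 1125.3 CPM with RSL3 plus Fer-1, 1332.2, 1306.3 and 1294.7 CPM with RSL3, and 862, 878 and 868 CPM with DMSO. The 3 groups did not overlap, and RSL3 plus Fer-1 lay between the others. It rose by 0.40 against DMSO (SE 0.027, adjusted p = 4.36e-11) and was 0.19 below RSL3 (log2 difference -0.19, adjusted p = 1.6e-05). The sulfiredoxin locus SRXN1, joined with another gene, rose by 0.54, the glutaredoxin GLRX by 0.52, thioredoxin TXN by 0.24 and the peroxiredoxin PRDX1 by 0.20. TXNIP, the inhibitor of thioredoxin, fell by 0.31 (adjusted p = 0.000604), a call that ended without DMSO replicates 1 and 2 (adjusted p = 0.0985). In all 6 of 18 members of this system rose and 1 fell (38.9% called, against 10.3% of all members), with a median of 0.14.

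Enzymes of the pentose phosphate pathway and of NADPH supply rose as well. PGD, a dehydrogenase that makes NADPH, had 188, 189 and 187 CPM with RSL3 plus Fer-1, 196, 197 and 192 CPM with RSL3, and 128, 130 and 128 CPM with DMSO. Both treated groups lay above DMSO by many times the spread within a group (0.55, SE 0.0375, adjusted p = 6.02e-11). Malic enzyme ME1 rose by 0.47 (adjusted p = 1.97e-07), transaldolase TALDO1 by 0.47 and transketolase TKT by 0.26. Among detoxifying enzymes, the quinone reductase NQO1 had 200, 201 and 211 CPM with RSL3 plus Fer-1, 232, 223 and 233 CPM with RSL3, and 136, 141 and 145 CPM with DMSO. Its 3 groups did not overlap (0.54 against DMSO, adjusted p = 2.38e-10; -0.17 against RSL3, adjusted p = 0.00625). PIR, UGDH and the epoxide hydrolase EPHX1 rose by 0.76, 0.68 and 0.51, and the conjugate exporters ABCC3 and ABCC2 by 0.70 and 0.32. The autophagy receptor SQSTM1, which binds KEAP1, had 703, 732 and 731 CPM with RSL3 plus Fer-1, 867, 863 and 810 CPM with RSL3, and 477, 472 and 466 CPM with DMSO (0.61 against DMSO, adjusted p = 2.08e-13; -0.23 against RSL3, adjusted p = 1.19e-05). NFE2L2, which encodes NRF2, fell by 0.22 in a joined locus (adjusted p = 0.000144), with 249, 257 and 253 CPM with RSL3 plus Fer-1, 239, 254 and 255 CPM with RSL3, and 291, 293 and 301 CPM with DMSO.

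Both ferritin genes rose, and the iron sensor FBXL5 fell. The ferritin light chain FTL had 439, 444 and 518 CPM with RSL3 plus Fer-1, 641, 627 and 561 CPM with RSL3, and 262, 274 and 280 CPM with DMSO, and the heavy chain FTH1 had 694, 714 and 778 CPM with RSL3 plus Fer-1, 1121.1, 1001.2 and 966 CPM with RSL3, and 533, 541 and 571 CPM with DMSO. In both, RSL3 plus Fer-1 lay between the other groups without overlap. FTL rose by 0.78 against DMSO (adjusted p = 0.00064) and FTH1 by 0.41 (adjusted p = 0.00427), and without DMSO replicates 1 and 2 neither call held (adjusted p = 0.0908 and 0.22). Both have many pseudogenes, so their read counts are uncertain. FBXL5, which targets iron regulatory proteins for degradation, fell by 0.38 (adjusted p = 4.35e-06). HMOX1, haem oxygenase, had 15.9, 15 and 14.6 CPM with RSL3 plus Fer-1, 26.5, 20.7 and 21.3 CPM with RSL3, and 14, 12.6 and 8.94 CPM with DMSO. The 3 RSL3 libraries were the highest, and the change with Fer-1 did not pass (0.36, adjusted p = 0.134), although it did without DMSO replicates 1 and 2 (0.77, adjusted p = 0.0107). The transferrin receptor TFRC, at 993, 1028.1 and 1007.9 CPM with RSL3 plus Fer-1, 960, 970 and 1005.1 CPM with RSL3, and 941, 951 and 918 CPM with DMSO, rose by 0.11 (adjusted p = 0.0182), a call lost without DMSO replicate 3 or RSL3 plus Fer-1 replicate 2 or 3 (adjusted p up to 0.111) and without DMSO replicates 1 and 2 (adjusted p = 0.072). Of 22 iron handling genes 4 rose and 1 fell (22.7% called, against 10.3% of all members), with a median of 0.07, and 1 rose without DMSO replicates 1 and 2 and 2 without RSL3 plus Fer-1 replicate 2 or replicate 3.

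ACSL4 and AIFM2, which set sensitivity to ferroptosis, did not pass. ACSL4, which loads polyunsaturated fatty acids into phospholipids and lies in a joined locus, differed by 0.05 (SE 0.0386, adjusted p = 0.63), and AIFM2, the ubiquinone reductase FSP1, by 0.04 (SE 0.092, adjusted p = 0.885). AIFM2 changed sign without RSL3 plus Fer-1 replicate 2 (-0.07). Of 22 suppressors of ferroptosis 7 rose and 1 fell, with a median of 0.07, and 3 rose without DMSO replicates 1 and 2. Beside SLC7A11, TXNRD1, GCLM and FTH1 these were the desaturase SCD (0.27), the sterol reductase DHCR7 (0.28) and the acyltransferase MBOAT2 (0.26). The DHCR7 call was lost without DMSO replicate 1 or RSL3 plus Fer-1 replicate 3, the MBOAT2 call without DMSO replicate 2 or 3 or RSL3 plus Fer-1 replicate 3, and SCD, DHCR7 and MBOAT2 did not pass without DMSO replicates 1 and 2. The share called was 36.4% of the suppressors, against 10.3% of all members. Of 13 drivers 3 rose and 0 fell (23.1% called), with a median of 0.05. SAT1, the polyamine acetyltransferase, had 37.2, 29.8 and 36.5 CPM with RSL3 plus Fer-1, 60.5, 50.5 and 51.4 CPM with RSL3, and 22.8, 24.1 and 25.2 CPM with DMSO (0.52 against DMSO, adjusted p = 0.000243). The other 2 were the reductase locus POR, joined with another gene, and TFRC, and none of the 3 passed without DMSO replicates 1 and 2.

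Genes known to rise in cells undergoing ferroptosis were divided. PTGS2, the inducible cyclooxygenase, had 15.3, 12.7 and 16.6 CPM with RSL3 plus Fer-1, 18.9, 14.7 and 14.6 CPM with RSL3, and 7.75, 6.65 and 7.13 CPM with DMSO. The treated groups overlapped each other and lay above DMSO (1.05 against DMSO, SE 0.135, adjusted p = 5.17e-06; -0.11 against RSL3, adjusted p = 0.74). The stress hormone GDF15, by contrast, had 3.94, 3.74 and 3.52 CPM with RSL3 plus Fer-1, 15.3, 14.1 and 10.7 CPM with RSL3, and 3.03, 4.03 and 1.72 CPM with DMSO. Its levels with Fer-1 overlapped those with DMSO (0.35, SE 0.228, adjusted p = 0.479), and without DMSO replicates 1 and 2 the difference was 1.12 (adjusted p = 0.0186). The pseudokinase TRIB3 rose by 0.45 (adjusted p = 3.49e-05). DDIT4, an inhibitor of mTORC1, had 98.9, 91.6 and 105 CPM with RSL3 plus Fer-1, 160, 124 and 144 CPM with RSL3, and 119, 124 and 126 CPM with DMSO, and its fall of 0.32 (adjusted p = 0.049) was lost in 6 of the 9 fits that each left out 1 library (adjusted p up to 0.178). Of 9 such genes 4 rose and 1 fell with Fer-1 present (55.6% called, against 10.3% of all members), with a median of 0.36. With RSL3 alone 7 rose and 0 fell with a median of 0.95. Without DMSO replicate 3 or RSL3 plus Fer-1 replicate 2, 3 rose and 0 fell.

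The secreted inflammatory signals CXCL8, IL11 and CXCL2 lay above DMSO and below RSL3. CXCL8, the neutrophil chemokine interleukin-8, had 13.5, 14.9 and 13.9 CPM with RSL3 plus Fer-1, 61.5, 47.6 and 44.2 CPM with RSL3, and 4.37, 2.74 and 3.45 CPM with DMSO. The 3 groups were far apart, with RSL3 plus Fer-1 4-fold above DMSO (2.00, SE 0.155, adjusted p = 4.8e-07) and 1.86 below RSL3 on the log2 scale (log2 difference -1.86, adjusted p = 2.94e-07). IL11, a cytokine of the interleukin-6 family, had 27.9, 25 and 31.9 CPM with RSL3 plus Fer-1, 49.4, 47.9 and 45.4 CPM with RSL3, and 9.54, 8.01 and 9.04 CPM with DMSO, again without overlap (1.67 against DMSO, SE 0.0946, adjusted p = 1.17e-12; -0.75 against RSL3, adjusted p = 1.28e-06). CXCL2, another neutrophil chemokine, had 5.09, 5.83 and 5.43 CPM with RSL3 plus Fer-1, 15.5, 12.2 and 10.6 CPM with RSL3, and 2.57, 2.74 and 2.33 CPM with DMSO. It rose by 1.10 against DMSO (adjusted p = 9.16e-05). The NF-kB inhibitor TNFAIP3 rose by 0.54 (adjusted p = 0.000962, but 0.21 without DMSO replicates 1 and 2), whereas the ubiquitin ligase BIRC3, at 119, 109 and 116 CPM with RSL3 plus Fer-1, 138, 134 and 133 CPM with RSL3, and 135, 143 and 152 CPM with DMSO, fell by 0.32 against DMSO (adjusted p = 3.45e-05). Of 24 listed NF-kB targets and cytokines 15 reached the FPKM minimum. Of these 5 rose and 1 fell (40% called, against 10.3% of all members), with a median of 0.20. RSL3 alone gave 11 rises and 0 falls with a median of 0.87. Listed cytokines below the minimum were not tested and had no common order. CXCL3, at 1.54, 1.57 and 1.67 CPM with RSL3 plus Fer-1, lay between the other groups. IL6 with Fer-1 (0.527, 0.465 and 1.27 CPM) overlapped DMSO (0.506, 0.569 and 1.12 CPM). CCL2 with Fer-1 (0.183, 0.443 and 0.132 CPM) lay below DMSO (0.85, 0.989 and 0.536 CPM).

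Of 26 immediate early genes, the first to respond to growth factor and stress signals, 20 reached the FPKM minimum. Of these 10 rose and 0 fell (50% called, against 10.3% of all members), with a median of 0.26. RSL3 alone gave 14 rises and 0 falls with a median of 0.50. In RSL3 plus Fer-1 against RSL3 the list had 1 rise and 12 falls. The MAP kinase phosphatase DUSP4 had 131, 136 and 145 CPM with RSL3 plus Fer-1, 207, 187 and 189 CPM with RSL3, and 91.4, 89.1 and 87.8 CPM with DMSO. RSL3 plus Fer-1 lay between the others (0.62 against DMSO, adjusted p = 4.49e-10; -0.50 against RSL3, adjusted p = 2.61e-08), and so did DUSP1 and DUSP5, with changes of 0.54 and 0.47 against DMSO and -0.35 and -1.02 against RSL3, and limma on FPKM did not call DUSP5 against DMSO. The kinase SGK1 was different, with 147, 162 and 173 CPM with RSL3 plus Fer-1, 149, 153 and 164 CPM with RSL3, and 109, 107 and 111 CPM with DMSO, so that both treated groups overlapped (0.56 against DMSO, adjusted p = 3.56e-08; 0.05 against RSL3, adjusted p = 0.702). The list of genes downstream of ERK had 6 rises and 1 fall among 16 members (43.8% called), with a median of 0.17. It shares DUSP4, DUSP5 and FOSL1 with the immediate early list among its rises. For the ERK list RSL3 alone gave 14 rises and 0 falls with a median of 0.47. RSL3 plus Fer-1 against RSL3 gave 0 rises and 12 falls. The immediate early count was 5 without DMSO replicates 1 and 2 and 6 in limma on log2(FPKM + 1). The ERK count was 3 without DMSO replicates 1 and 2, 3 without RSL3 plus Fer-1 replicate 3 and 1 in limma.

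EREG, STC2 and ADM were lower with Fer-1 present than in both other groups and highest with RSL3 alone. EREG, the EGF receptor ligand epiregulin, had 112, 105 and 105 CPM with RSL3 plus Fer-1, 224, 200 and 197 CPM with RSL3, and 136, 124 and 127 CPM with DMSO. It was 0.27 lower than DMSO (log2 difference -0.27, adjusted p = 0.000615), with an adjusted p of 0.052 without DMSO replicates 1 and 2. STC2, a secreted glycoprotein of the stress response, had 77, 71.2 and 74.7 CPM with RSL3 plus Fer-1, 154, 142 and 143 CPM with RSL3, and 97.6, 101 and 85.5 CPM with DMSO (-0.35 against DMSO, adjusted p = 0.000139, but 0.175 without DMSO replicates 1 and 2). ADM, the gene of a vasodilator peptide, had 7.77, 8.86 and 7.76 CPM with RSL3 plus Fer-1, 18.2, 14.4 and 16.3 CPM with RSL3, and 11.9, 10.9 and 12.3 CPM with DMSO. Its change of -0.52 (adjusted p = 0.00945) did not pass without RSL3 plus Fer-1 replicate 3 (adjusted p = 0.0561) or without DMSO replicates 1 and 2 (adjusted p = 0.0799). In each of these 3 genes no library with Fer-1 overlapped either other group.

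TIPARP had the largest of the named falls that were not called with RSL3 alone. This mono-ADP-ribosyltransferase, a target and feedback repressor of the aryl hydrocarbon receptor, had 55.5, 54.8 and 60.3 CPM with RSL3 plus Fer-1, 110, 109 and 117 CPM with RSL3, and 121, 114 and 104 CPM with DMSO. The RSL3 and DMSO libraries overlapped, and the 3 libraries with Fer-1 lay far below them. The change was -0.99 against DMSO (SE 0.0571, adjusted p = 1.53e-12), or 1.99-fold lower, and -0.98 against RSL3 (adjusted p = 4.97e-12), while RSL3 differed from DMSO by -0.02 (adjusted p = 0.901). Without DMSO replicates 1 and 2 it was -0.87 (adjusted p = 2.23e-08). Its locus lies at chr3:156673235-156707000. Other targets of that receptor, CYP1B1 and CYP1A1, cytochrome P450 enzymes and the first in a joined locus, were below the FPKM minimum and were not tested. CYP1B1 had 1.01, 0.997 and 1.47 CPM with RSL3 plus Fer-1, 2.13, 2.8 and 2.68 CPM with RSL3, and 4.69, 4.18 and 3.19 CPM with DMSO, with no overlap among the groups. CYP1A1 had 0.596, 0.199 and 0.615 CPM with RSL3 plus Fer-1, 0.702, 1.14 and 1.47 CPM with RSL3, and 1.22, 1.48 and 1.4 CPM with DMSO, where RSL3 and DMSO overlapped. ALDH3A1, a listed target also below the minimum, did not follow this order. It had 1.47, 1.48 and 1.32 CPM with RSL3 plus Fer-1, 1.73, 1.39 and 1.88 CPM with RSL3, and 1.56, 1.36 and 0.815 CPM with DMSO. Of 13 listed targets of the receptor 6 reached the minimum, with a median of -0.03. Of these TIPARP and the amino acid transporter SLC7A5 fell and NQO1 rose (50% called, against 10.3% of all members). The xenobiotic response letters TNGCGTG were not in the TIPARP promoter window.

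**Figure D4:**
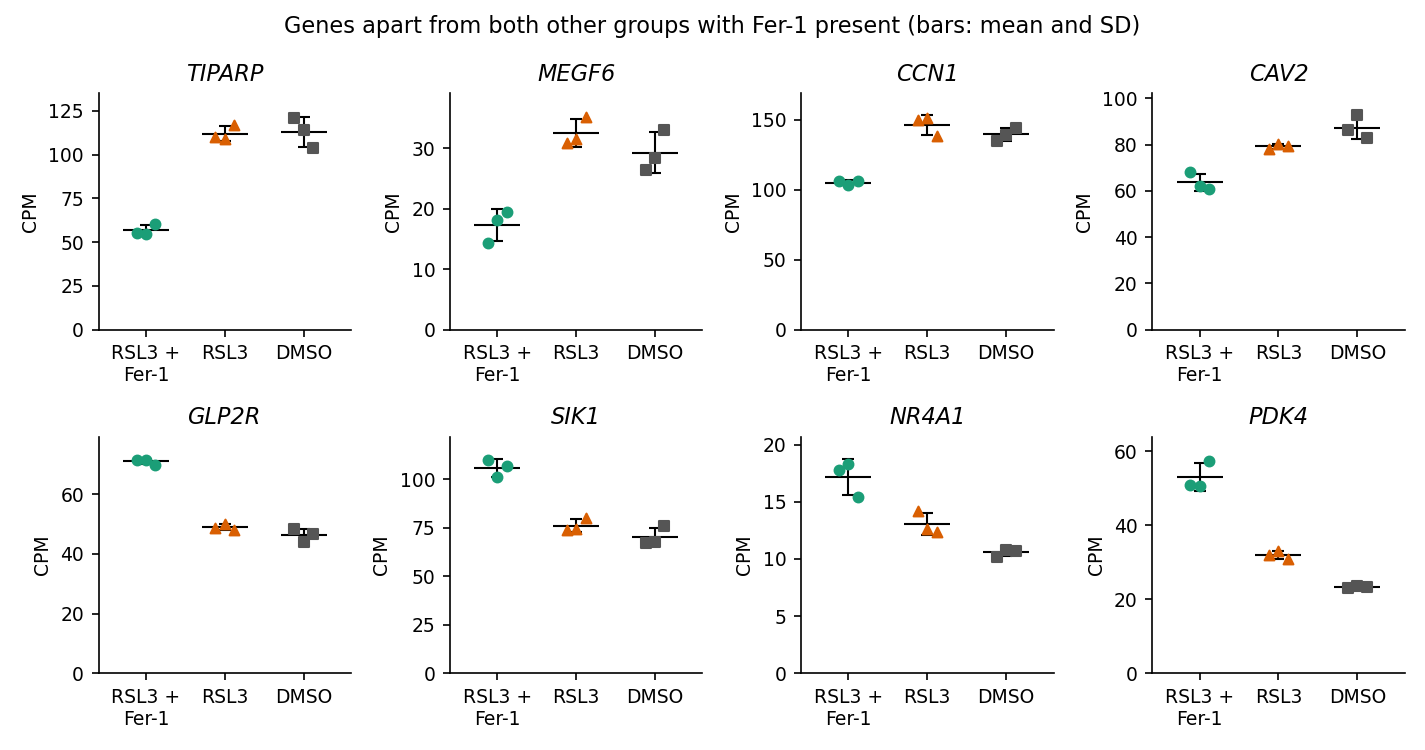
CPM of 8 genes in each library, with RSL3 plus Fer-1 at the left, RSL3 in the middle and DMSO at the right of each panel; points are libraries and bars the mean and SD (n = 3). TIPARP averaged 56.9 ± 3 CPM with RSL3 plus Fer-1 against 113 ± 8.29 CPM with DMSO, and PDK4 averaged 53 ± 3.86 CPM with RSL3 plus Fer-1 against 23.3 ± 0.266 CPM with DMSO.

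The aldehyde dehydrogenase ALDH1A3, in a joined locus, had a like order, with 37.4, 26.7 and 35.9 CPM with RSL3 plus Fer-1, 57.7, 54.7 and 53.7 CPM with RSL3, and 61.3, 55.7 and 53.1 CPM with DMSO (-0.77 against DMSO, adjusted p = 0.000368; -0.73 against RSL3, adjusted p = 0.000495). MEGF6, a protein with EGF-like repeats, had 14.4, 18.1 and 19.5 CPM with RSL3 plus Fer-1, 30.9, 31.5 and 35.1 CPM with RSL3, and 26.4, 28.3 and 33 CPM with DMSO. It fell by 0.76 against DMSO (adjusted p = 2.69e-05), and the RSL3 and DMSO libraries overlapped. The guanine deaminase GDA had 113, 114 and 117 CPM with RSL3 plus Fer-1, 169, 167 and 173 CPM with RSL3, and 184, 194 and 191 CPM with DMSO, a fall of 0.73 (adjusted p = 6.3e-13).

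CCN1, CCN5, CAV1 and CAV2 fell with Fer-1 present. CCN1, a matricellular protein and target of YAP and TEAD, had 106, 103 and 106 CPM with RSL3 plus Fer-1, 150, 151 and 138 CPM with RSL3, and 135, 139 and 144 CPM with DMSO (-0.41 against DMSO, adjusted p = 3.86e-07; -0.47 against RSL3, adjusted p = 3.05e-08). CCN5, of the same family, fell by 0.64 (adjusted p = 6.77e-05), but CCN2 held 22.1, 20.8 and 22.9 CPM with RSL3 plus Fer-1, 25.3, 28.4 and 28.8 CPM with RSL3, and 27.6, 24.8 and 20.8 CPM with DMSO and did not pass (-0.15, adjusted p = 0.455). CAV2, a caveolin, had 68, 62.2 and 60.9 CPM with RSL3 plus Fer-1, 78.2, 80.3 and 79.3 CPM with RSL3, and 86.4, 92.9 and 82.8 CPM with DMSO. CAV1, named here after its values were seen, changed by -0.45 (adjusted p = 3.14e-06), against -0.46 for CAV2 (adjusted p = 3.14e-06). With RSL3 alone CAV1 also fell (-0.19, adjusted p = 0.0161), while CAV2 did not pass (-0.14, adjusted p = 0.0977). Among 22 targets of YAP and TEAD 5 rose and 5 fell with a median of -0.09, with no common direction. This was 45.5% called, against 10.3% of all members. AJUBA, in a joined locus, fell by 0.45 and MYOF by 0.20, while TEAD1 itself rose by 0.25 (adjusted p = 4.41e-06). MYOF did not pass without DMSO replicates 1 and 2 (adjusted p = 0.0932). Over the list 2 rose and 3 fell without those libraries, and 4 rose and 2 fell without joined loci.

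Several further falls rested on few libraries. SH3BP5, a partner of the kinase JNK, fell by 0.87 (adjusted p = 0.0136), a call lost without DMSO replicate 1, DMSO replicate 2 or RSL3 plus Fer-1 replicate 3 (adjusted p up to 0.107) and without both DMSO replicates 1 and 2 (adjusted p = 0.303). The netrin NTN4 and the exporter ABCG2 fell by 0.58 and 0.46, and neither passed without DMSO replicates 1 and 2 (adjusted p = 0.11 and 0.22), while the ligand WNT7B fell by 0.56 but did not pass without RSL3 plus Fer-1 replicate 3 (adjusted p = 0.0715) or in limma on FPKM. RFXAP and the lysyl oxidase LOXL3 were each lost in 5 of the 9 fits that left out 1 library (adjusted p up to 0.209 and 0.217). Both also fell with RSL3 alone (-0.78, adjusted p = 0.0085, and -0.70, adjusted p = 0.00956).

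Falls that were also present with RSL3 alone included PZP, a protease inhibitor of the alpha-2-macroglobulin family. It had 2.82, 3.12 and 3.8 CPM with RSL3 plus Fer-1, 2.13, 2.38 and 2.63 CPM with RSL3, and 10.2, 10 and 10.5 CPM with DMSO (-1.65 against DMSO, adjusted p = 2.37e-07, not called by limma on FPKM). IGFBP3, a carrier of insulin-like growth factors, had 56.6, 56.8 and 50 CPM with RSL3 plus Fer-1, 73.5, 63.9 and 65.9 CPM with RSL3, and 113, 118 and 90.6 CPM with DMSO, a fall of 0.98 (adjusted p = 5.68e-05), and of 0.73 without DMSO replicates 1 and 2 (adjusted p = 6.23e-06). The corepressor TLE4 fell by 0.79 (adjusted p = 1.79e-06) and the metalloreductase STEAP4 by 0.63 (adjusted p = 9.64e-05). ANAPC15, of the anaphase-promoting complex, fell by 0.70 and did not pass without DMSO replicates 1 and 2 (adjusted p = 0.0617).

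In the other direction, PDK4, the kinase that shuts down pyruvate dehydrogenase in fasting, was highest with Fer-1. It had 50.9, 50.6 and 57.4 CPM with RSL3 plus Fer-1, 31.9, 33.1 and 30.9 CPM with RSL3, and 23, 23.5 and 23.3 CPM with DMSO. The 3 groups did not overlap, with changes of 1.19 against DMSO (SE 0.0727, adjusted p = 5.42e-12), 0.73 against RSL3 (adjusted p = 7.08e-08) and 0.46 for RSL3 against DMSO (adjusted p = 4.07e-05). Its locus lies at chr7:95583499-95596516. SIK1, a salt-inducible kinase and known target of cAMP signalling, had 110, 101 and 107 CPM with RSL3 plus Fer-1, 73.8, 74.4 and 79.9 CPM with RSL3, and 67.4, 67.7 and 75.7 CPM with DMSO, so that RSL3 and DMSO overlapped (0.59 against DMSO, SE 0.0567, adjusted p = 3.89e-08; 0.48 against RSL3, adjusted p = 1.3e-06). The near-identical copy SIK1B changed by 0.42 (adjusted p = 0.000458, but 0.0826 without DMSO replicates 1 and 2), and how reads were divided between the copies is uncertain. The orphan nuclear receptor NR4A1 had 17.8, 18.3 and 15.4 CPM with RSL3 plus Fer-1, 14.2, 12.6 and 12.4 CPM with RSL3, and 10.2, 10.8 and 10.7 CPM with DMSO (0.70 against DMSO, adjusted p = 0.000191; 0.39 against RSL3, adjusted p = 0.0356).

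GLP2R, the receptor of the intestinal hormone GLP-2, had 71.5, 71.7 and 70 CPM with RSL3 plus Fer-1, 48.8, 50.1 and 48.2 CPM with RSL3, and 48.3, 44 and 46.6 CPM with DMSO. It stood apart from both other groups, which overlapped (0.62 against DMSO, SE 0.0581, adjusted p = 3.08e-08; 0.54 against RSL3, adjusted p = 2.98e-07). Named after their values were seen, PPARGC1A, the coactivator of mitochondrial biogenesis, rose by 0.40 (adjusted p = 0.00228) and the cAMP phosphodiesterase PDE4D by 0.27 (adjusted p = 0.000796), with 1655.5, 1643.1 and 1629.9 CPM with RSL3 plus Fer-1, 1502.3, 1343.4 and 1517.7 CPM with RSL3, and 1298.3, 1389.0 and 1407.2 CPM with DMSO. The initiator caspase CASP9 rose by 0.58 (adjusted p = 0.00405), with 18, 21.9 and 18.6 CPM with RSL3 plus Fer-1, 13.6, 10.6 and 12.4 CPM with RSL3, and 15.4, 11.6 and 12.2 CPM with DMSO. The phosphatase DUSP2 and the sulfurtransferase TST changed by 0.65 and 0.51, and neither passed without DMSO replicates 1 and 2 (adjusted p = 0.113 and 0.108). The collagen COL15A1 changed by 0.43 and was lost in 5 of the 9 fits that left out 1 library (adjusted p up to 0.166). PPARGC1A did not pass without DMSO replicates 1 and 2 (adjusted p = 0.0919). PPARGC1A, PDE4D, CASP9 and COL15A1 were not called by limma on FPKM.

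TGFBR1, PMEPA1 and ID3, genes of TGF-beta and bone morphogenetic protein signalling, were highest with Fer-1. Of the TGF-beta and mesenchymal list counted below 30% was called, against 10.3% of all members. The list as a whole was not highest with Fer-1. RSL3 alone gave 7 rises and 1 fall in it, and RSL3 plus Fer-1 against RSL3 gave 3 rises and 4 falls (median -0.04). BMP6, a ligand given below, also rose with RSL3 alone (0.48, adjusted p = 6.98e-07). The receptor TGFBR1 had 698, 698 and 701 CPM with RSL3 plus Fer-1, 608, 569 and 592 CPM with RSL3, and 561, 583 and 568 CPM with DMSO (0.29 against DMSO, adjusted p = 2.12e-07; 0.25 against RSL3, adjusted p = 3.71e-06). PMEPA1, a SMAD-induced feedback inhibitor, had 70.7, 72.3 and 77 CPM with RSL3 plus Fer-1, 52.7, 60.3 and 56.4 CPM with RSL3, and 43.2, 45.1 and 49.4 CPM with DMSO. It rose by 0.68 (adjusted p = 4.17e-08). ID3, a target of bone morphogenetic proteins, rose by 0.40 against DMSO and by 0.44 against RSL3, but did not pass without DMSO replicates 1 and 2 (adjusted p = 0.0746), and the ligand BMP6, named after its values were seen, rose by 0.72 (adjusted p = 1.76e-09). Of 20 genes of the TGF-beta and mesenchymal list 5 rose and 1 fell, with a median of 0.16, and without DMSO replicates 1 and 2 the counts were 3 and 0. The fall was VIM (-0.14, adjusted p = 0.0376), which fibroblasts also express, and it did not pass without DMSO replicates 1 and 2 (-0.02, adjusted p = 0.921).

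Among hypoxia and glycolysis genes, RSL3 alone raised 26 of 28 members with a median of 0.45. With Fer-1 present 7 rose and 3 fell (35.7% called, against 10.3% of all members), and the median was 0.11. The count depended on single libraries, with 3 rises and 1 fall without RSL3 plus Fer-1 replicate 2, 4 and 1 without replicate 3, 2 and 0 without DMSO replicates 1 and 2, and 1 and 1 in limma on log2(FPKM + 1). The angiogenic factor VEGFA had 48.2, 47.9 and 54.4 CPM with RSL3 plus Fer-1, 84.2, 65.8 and 74 CPM with RSL3, and 52.5, 48.1 and 51.6 CPM with DMSO. Its levels with Fer-1 overlapped those with DMSO (-0.02, SE 0.0759, adjusted p = 0.952), as did those of the mitophagy receptor BNIP3 (-0.01, adjusted p = 0.972). ANGPTL4, a lipoprotein lipase inhibitor, rose by 1.27 (adjusted p = 5.05e-05), with 4.68, 6.22 and 5.3 CPM with RSL3 plus Fer-1, 16.9, 13.6 and 13.5 CPM with RSL3, and 2.71, 2.47 and 1.54 CPM with DMSO.

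Genes of the amino acid and endoplasmic reticulum stress responses rose in part. Among 28 genes of the amino acid response, which ATF4 drives, 9 rose and 3 fell, with a median of 0.12. This was 42.9% called, against 10.3% of all members. The asparagine synthetase ASNS, in a joined locus, rose by 0.48, the serine synthesis enzyme PHGDH by 0.35, and the transporter SLC7A5, which exchanges glutamine for leucine, fell by 0.31 (690, 739 and 730 CPM with RSL3 plus Fer-1, 771, 755 and 746 CPM with RSL3, and 910, 874 and 891 CPM with DMSO, adjusted p = 8.09e-08). Of 23 endoplasmic reticulum chaperones 9 rose and 0 fell (39.1% called), with a median of 0.09. The disulphide isomerase PDIA4 had 206, 195 and 192 CPM with RSL3 plus Fer-1, 231, 225 and 208 CPM with RSL3, and 132, 139 and 140 CPM with DMSO (0.53 against DMSO, adjusted p = 2.08e-09). HYOU1 and PDIA3 rose by 0.32 and 0.25, while the main chaperone HSPA5 (BiP) held 457, 456 and 448 CPM with RSL3 plus Fer-1, 572, 532 and 490 CPM with RSL3, and 478, 479 and 476 CPM with DMSO and did not pass (-0.07, adjusted p = 0.358).

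Lipid genes showed small changes. Of 26 cholesterol synthesis genes 5 rose and 0 fell (19.2% called, against 10.3% of all members), with a median of 0.13. RSL3 alone gave 16 rises and 1 fall. FDFT1, the squalene synthase, had 109, 108 and 114 CPM with RSL3 plus Fer-1, 116, 121 and 118 CPM with RSL3, and 86.4, 90.9 and 84.8 CPM with DMSO. All libraries of both treated groups lay above DMSO (0.34 against DMSO, adjusted p = 1.87e-05; -0.10 against RSL3, adjusted p = 0.251). Over the list 2 genes rose without DMSO replicate 1, and 2 without RSL3 plus Fer-1 replicate 3. Of 17 genes of fatty acid synthesis and desaturation 6 rose and 1 fell, with a median of 0.10, and 2 rose and 0 fell without DMSO replicates 1 and 2. SCD, the desaturase that makes monounsaturated fatty acids, had 473, 502 and 544 CPM with RSL3 plus Fer-1, 427, 442 and 476 CPM with RSL3, and 429, 414 and 418 CPM with DMSO. The RSL3 plus Fer-1 and RSL3 groups overlapped, and the rise of 0.27 did not pass without DMSO replicates 1 and 2 (adjusted p = 0.101). The desaturase locus FADS1, joined with another gene, rose by 0.37 (adjusted p = 3.97e-06). In all 41.2% of the fatty acid list was called, against 10.3% of all members.

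Cell division genes were close to DMSO. Of 30 mitosis genes 0 rose and 2 fell (6.67% called, against 10.3% of all members), with a median of -0.01. RSL3 alone gave 20 falls, 0 rises and a median of -0.15. RSL3 plus Fer-1 against RSL3 gave 14 rises and 0 falls. The 2 falls, in the cytokinesis protein ANLN (-0.19, adjusted p = 0.000843) and the checkpoint kinase BUB1 (-0.14, adjusted p = 0.0237), did not pass without DMSO replicates 1 and 2, and BUB1 was lost in 6 of the 9 fits that left out 1 library (adjusted p up to 0.111). Of 37 genes of DNA replication 3 rose and 0 fell (8.11%, against 10.3% of all members), of 31 proteasome subunits 3 rose and 0 fell (9.68%), and of 37 ribosomal proteins 1 rose and 0 fell (2.7%). Replication-dependent histones, in contrast, rose in 10 of 26 (38.5% called) with 0 falls and a median of 0.14. The linker histone H1-4 had 210, 218 and 205 CPM with RSL3 plus Fer-1, 205, 210 and 196 CPM with RSL3, and 158, 177 and 177 CPM with DMSO (0.31, adjusted p = 3.04e-05), and H2BC12 rose by 0.26 (adjusted p = 4.2e-06). The histone count was 6 in limma and 2 without DMSO replicates 1 and 2, and histone genes share near-identical sequence. Of 33 nuclear genes of oxidative phosphorylation 0 rose and 2 fell, with a median of -0.04, and cytochrome c, CYCS, fell by 0.27 (adjusted p = 0.000537), a call lost without DMSO replicates 1 and 2 (adjusted p = 0.0869). The calls in oxidative phosphorylation made up 6.06% of the list, below the 10.3% of all members. Of the epithelial markers the 3 keratins that reached the minimum fell, KRT8 by 0.17, KRT18 by 0.16 and KRT7, in a joined locus, by 0.12. Without DMSO replicates 1 and 2 only KRT8 passed (adjusted p = 0.0335), and keratin pseudogenes make these counts uncertain.

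**Figure D5:**
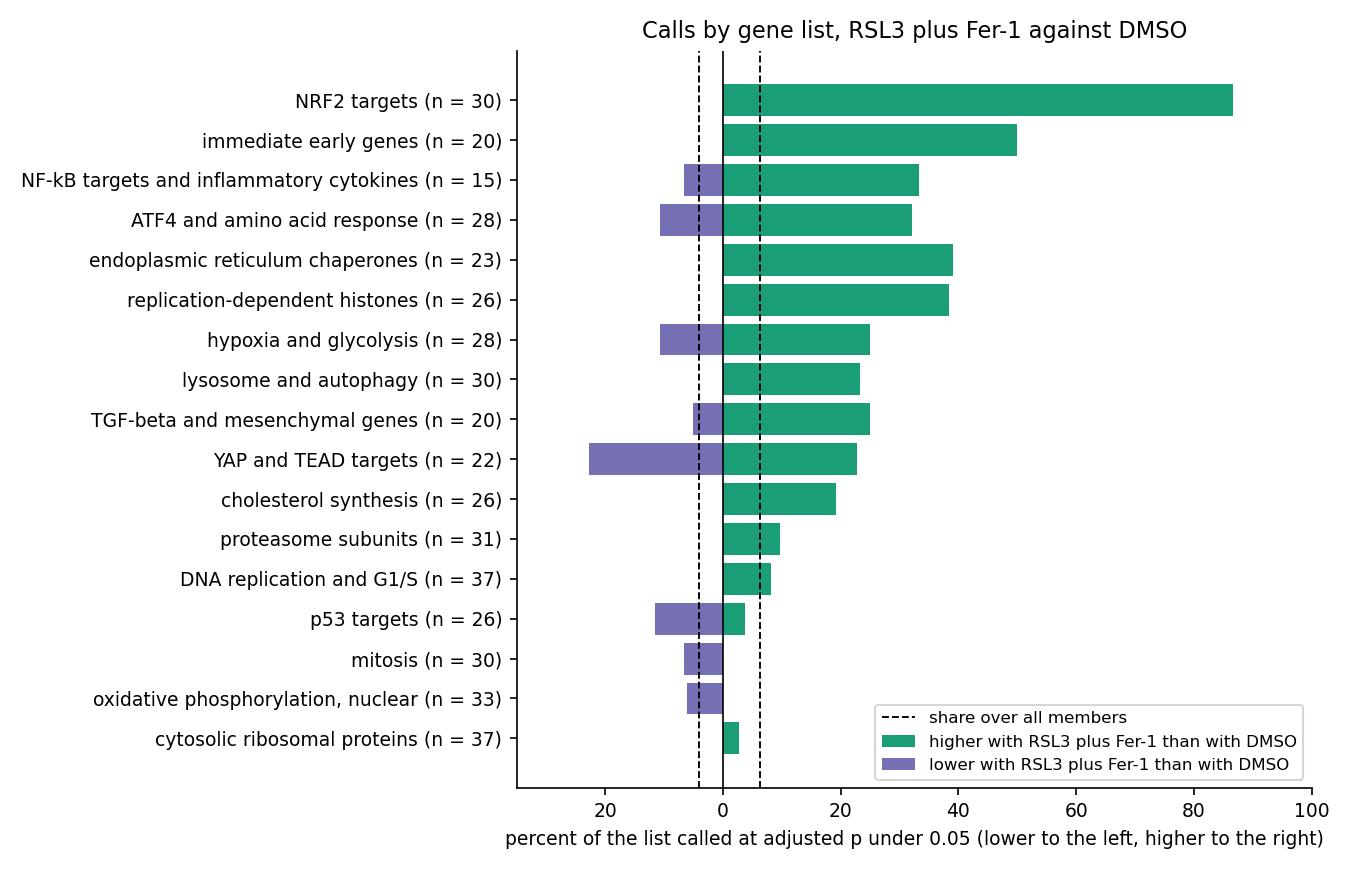
Share called at an adjusted p under 0.05 in RSL3 plus Fer-1 against DMSO, for a selection of the gene lists. Genes higher with RSL3 plus Fer-1 are to the right and lower ones to the left of 0, with n for the members of each list. Dashed lines are the shares over all members (6.29% higher, 4.05% lower). NRF2 targets reach 86.7% to the right. Mitosis genes reach 6.67% to the left and 0 to the right, and ribosomal protein genes 2.7% to the right and 0 to the left.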

How the data were processed

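Total RNA was extracted with Trizol, per the labels' protocols, and cutadapt 1.9, FastQC and the GRCh38 build are named in the submitters' processing notes. In the sources used here the aligner, the counter and the strand setting are not given, so overlapping and antisense loci share reads that cannot be told apart. Per the file headers, the deposited table gives for each library an estimated count and an FPKM for each of 43444 loci. The deposited counts are whole numbers, and whether they are tallies or rounded estimates is not stated; rounding changed nothing. The FPKM values are the authors' own normalization and were used for the minimum of 1 in 3 libraries and for limma. The 1496 loci without a gene name (0.48% to 0.546% of counts) were left out. A locus whose name joins several genes was kept whole (1823 of the 9583 members), and its value is that of the whole locus.

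The 17297 named loci that passed the minimum were fitted together over all 9 libraries and 3 groups with edgeR 4.0.16 in R 4.3.3. The fit used TMM, the robust quasi-likelihood test and Benjamini-Hochberg adjustment, with no covariate. A prior count of 2 was used only for the log2 CPM of the replicate correlations. The fit was tested on simulated data. Tables and figures used Python 3.11.15, pandas 2.3.3 and matplotlib 3.10.9. Alternatives used limma 3.58.1 on log2(FPKM + 1) and log2(FPKM + 0.1), DESeq2 1.42.0, other size factors and filters, the 6 libraries compared alone, the replicate block, and leaving out each library; leaving out DMSO replicates 1 and 2 together was added after seeing the data. On the log2(FPKM + pseudocount) scale the changes of low genes are understated. Floors of 3 counts cover counting error only. Replicates of a group differed by more than sampling noise (chi-square per degree of freedom 9.01 to 15.6).

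Genes named are the 12 largest called rises and falls with a single name, a mean of at least 5 CPM in the higher group and no overlap with DMSO; the 8 largest rises and falls also called in the same direction against RSL3 and not called with RSL3 alone; up to 4 members of each list by adjusted p; and 13 genes always given. Members that this rule picks and that are not given are not reported here. Genes outside this rule are named with their lists or as chosen after their values were seen. The members and lists were chosen with earlier results of these data known. Promoters were matched by symbol to the RefSeq table for 6363 of 7760 members with a single name.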

Additional observations from a re-analysis of the deposited data

How the results depend on the processing

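The 991 calls became 451 and 445 with limma on log2(FPKM + 0.1) and log2(FPKM + 1) (284 and 279 higher, 167 and 166 lower), and 358 without DMSO replicates 1 and 2 (264 higher, 94 lower); the last fit has fewer samples, and the cause of the other was not tested. Leaving out 1 library at a time gave 603 to 1041 calls in all, 392 to 626 higher and 211 to 415 lower, with the lowest totals without RSL3 plus Fer-1 replicate 3 (603), RSL3 plus Fer-1 replicate 2 (640) and DMSO replicate 2 (658), and with 225 lower without DMSO replicate 2. DESeq2 gave 1304, the RLE factors 993, and leaving out joined loci 755. Of the 991 calls, 434 were kept with limma at a pseudocount of 1, 991 with DESeq2 and 325 without DMSO replicates 1 and 2, and 0 changed sign under any alternative. The share of calls that were higher, 60.8%, was 73.7% without DMSO replicates 1 and 2, 53.3% with library totals only (545 higher, 477 lower) and 54.6% with upper-quartile factors (552 higher, 459 lower). Same-numbered libraries showed little pairing over all pairs of groups (correlations of deviations -0.0497 to 0.0657). Between RSL3 plus Fer-1 and DMSO these were 0.0634, 0.0264 and 0.0657, against -0.0621 to -0.00262 for different numbers. With the replicate block 970 members were called. Among named genes that did not pass, the sign changed in EGFL7 (-0.02 without DMSO replicate 2, and -0.06 to 0.36 over the omissions of 1 library), CD68 (0.01 without DMSO replicates 1 and 2), CCN2 (0.08 without the same 2 libraries), AIFM2 (-0.07 to 0.15 over the omissions of 1 library), VEGFA (-0.08 to 0.02), CDKN1A (-0.19 to 0.19) and BNIP3 (-0.05 to 0.02, and 0.07 without DMSO replicates 1 and 2). CDKN2A and CDKN2B, which also did not pass (-0.02 and -0.01), changed sign as well over the omissions of 1 library. Of the 281 members with a mean under 5 CPM 3.2% were called, against 16% of the 4299 above 50 CPM, and the part of depth in this was not tested.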

Other observations

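The cathepsin genes CTSD, CTSL and CTSB, which encode lysosomal proteases, rose. Of 30 lysosome and autophagy genes 7 rose and 0 fell (23.3% called, against 10.3% of all members), with a median of 0.10, against 18 and 0 with RSL3 alone, and 4 rose without DMSO replicate 2, without RSL3 plus Fer-1 replicate 3, in limma and without DMSO replicates 1 and 2. The cathepsin locus CTSD, joined with another gene, had 117, 123 and 130 CPM with RSL3 plus Fer-1, 154, 148 and 145 CPM with RSL3, and 83.5, 81 and 87.1 CPM with DMSO (0.56 against DMSO, adjusted p = 4.91e-09; -0.27 against RSL3, adjusted p = 0.000266). CTSL and CTSB rose by 0.40 and 0.31. The integrin ITGA2 had 119, 125 and 122 CPM with RSL3 plus Fer-1, 189, 177 and 177 CPM with RSL3, and 97, 92.2 and 87.6 CPM with DMSO, a rise of 0.40 against DMSO (adjusted p = 6.51e-07). The clock repressor BHLHE40 had 66, 65.3 and 72.2 CPM with RSL3 plus Fer-1, 104, 88.7 and 94.2 CPM with RSL3, and 43.3, 42.9 and 47.6 CPM with DMSO (0.61, adjusted p = 2.15e-07). In CTSD, ITGA2 and BHLHE40 the 3 groups did not overlap.

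The zinc importer SLC39A10 fell, with 208, 208 and 225 CPM with RSL3 plus Fer-1, 185, 182 and 194 CPM with RSL3, and 286, 307 and 274 CPM with DMSO (-0.43 against DMSO, adjusted p = 8.91e-08; 0.19 against RSL3, adjusted p = 0.00476). Of 17 genes of metallothioneins and zinc transporters 1 rose and 1 fell (11.8% called, near the 10.3% of all members). In limma, without DMSO replicate 3 and without RSL3 plus Fer-1 replicate 3, 0 rose and 1 fell. The other genes of this paragraph were named after their values were seen. PEG10, an imprinted gene derived from a retrotransposon, had 144, 140 and 142 CPM with RSL3 plus Fer-1, 113, 117 and 114 CPM with RSL3, and 200, 193 and 188 CPM with DMSO (-0.45 against DMSO, adjusted p = 1.15e-08). In SLC39A10 and PEG10 RSL3 lay farther below DMSO than RSL3 plus Fer-1 did. The chemokine receptor CXCR4 rose by 0.61 (adjusted p = 3.6e-06), and PTGR1, which reduces prostaglandins and lipid aldehydes, by 0.81 (adjusted p = 2.9e-10). IER3, an early response gene, held 66.6, 63.7 and 71.1 CPM with RSL3 plus Fer-1, 159, 147 and 138 CPM with RSL3, and 63, 64.3 and 58.3 CPM with DMSO, and did not pass against DMSO (0.12, adjusted p = 0.297).

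The p53 target CDKN1A held 19.5, 20.1 and 22.5 CPM with RSL3 plus Fer-1, 36.9, 28.3 and 32.5 CPM with RSL3, and 22.6, 24.6 and 13.6 CPM with DMSO. It did not pass against DMSO (0.03, adjusted p = 0.976), and without DMSO replicates 1 and 2, the higher pair of DMSO libraries, it was called (0.61, adjusted p = 0.0206). Of 26 p53 targets 1 rose and 3 fell (15.4% called, against 10.3% of all members) with a median of -0.07, with 1 and 1 without RSL3 plus Fer-1 replicate 3 and 2 and 0 without DMSO replicates 1 and 2. Of 22 interferon response genes 1 rose and 2 fell (13.6% called, near the 10.3% of all members) with a median of -0.02, and none of those calls held without DMSO replicates 1 and 2. The interferon-induced gene IFIT1, with 10.1, 10.3 and 8.37 CPM with RSL3 plus Fer-1, 9.9, 9.85 and 11.1 CPM with RSL3, and 16.7, 15 and 12 CPM with DMSO, changed by -0.60 (adjusted p = 0.00543), and the call was lost without DMSO replicate 1 or RSL3 plus Fer-1 replicate 3.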
